A study of Mus musculus with 16 samples.

Results

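The circadian clock genes studied here were 10 named transcripts, Per1, Per2, Per3, Cry1, Cry2, Nr1d1, Nr1d2, Dbp, Bhlhe40 and Clock, read from RNA sequencing counts of mIMCD3 cells. They were chosen by gene symbol, with earlier results of these data known, and made up 10 of 55367 gene rows. Each was found in every library, with between 28 and 10337 counts, and each passed the filter on low counts.

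The mammalian clock is a feedback loop of transcription. The proteins Clock and Bmal1 (gene Arntl) bind E-box sequences together and switch on the Per and Cry genes, whose proteins then repress Clock and Bmal1. A second arm is formed by Nr1d1 and Nr1d2, the nuclear receptors also called Rev-erb alpha and beta, which repress Arntl, and by the ROR receptors, which activate it. Bhlhe40 (Dec1) is a repressor that competes for E-boxes, and Dbp is an activator of D-box sequences that usually follows the Clock and Bmal1 rhythm closely. In the renal collecting duct the clock is known for its link to sodium transport, in part through Per1.

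mIMCD3 is a cell line of the mouse inner medullary collecting duct. Wild-type (WT) cells received the solvent DMSO or 10 μM sulforaphane (SFN), an activator of the transcription factor Nrf2 (gene Nfe2l2), for 5 h. RNA was collected at that point (isosmotic), or after the medium had been replaced with hyperosmotic medium of 600 mOsm for 1 h or 6 h. Nrf2-/- cells, made by lentiviral CRISPR/Cas9 and drug selection, received SFN and were collected isosmotic or after 1 h of stress. The 16 libraries held no Nrf2-/- cells with DMSO or with 6 h of stress, so the response of Nrf2-/- cells to SFN cannot be read. Each of the 8 groups held 2 libraries, described as biological replicates.

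Library totals lay between 34484296 and 50774875 counts. Nfe2l2 had 11.1 and 11.6 CPM (counts scaled to a common library size) in the isosmotic Nrf2-/- libraries and 11.0 and 11.1 CPM in the stressed ones, against 64.0 CPM or more in every WT library, matching the genotype labels. The 2 Nrf2-/- libraries at 1 h stood apart from each other, with a biological coefficient of variation of 0.348 against 0.0393 to 0.128 in the other 7 pairs. For that reason comparisons among WT groups were fitted on the 12 WT libraries, and only comparisons with Nrf2-/- cells on all 16. Of the epithelial markers, Cdh1, Epcam, Krt8, Krt18, Pax2, Pax8, Hoxb7 and Tfcp2l1 had at least 23.6 CPM in every library. Gata3 (0.134 to 6.65 CPM) and Scnn1a (0.683 to 2.91 CPM) were low. The water channel genes Aqp2 and Aqp3 of the mature collecting duct never exceeded 11 and 30 counts. Because the isosmotic libraries were taken before the medium was replaced, time of collection, medium change and osmolality cannot be told apart in any comparison with stress. In bulk RNA, fewer cells of a kind and less RNA per cell cannot be told apart either.

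Promoter windows from RefSeq (GRCm38.p6, 250 bases before to 50 after a start site) were matched for 8 members, with 11 windows in all. They are shown for Per1 and Cry1, the only members with an E-box match, and for Per3, the only one with a D-box match. Capitals mark the E-box CACGTG in Per1 and Cry1 and the D-box TTATGTAA in Per3. No E-box was found in the windows of Cry2, Nr1d1, Nr1d2 or Clock, or in a second window of Per1 (chr11:69099902-69100201). The windows shown are chr11:69098699-69098998 on the plus strand for Per1, chr10:85185005-85185304 on the minus strand for Cry1 and chr4:151044616-151044915 on the minus strand for Per3.
Per1: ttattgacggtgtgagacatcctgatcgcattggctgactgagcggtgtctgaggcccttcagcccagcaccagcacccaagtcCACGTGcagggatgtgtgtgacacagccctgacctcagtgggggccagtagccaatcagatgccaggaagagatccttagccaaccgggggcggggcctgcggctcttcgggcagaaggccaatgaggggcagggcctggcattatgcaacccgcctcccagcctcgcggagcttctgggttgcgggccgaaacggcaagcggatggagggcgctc
Cry1: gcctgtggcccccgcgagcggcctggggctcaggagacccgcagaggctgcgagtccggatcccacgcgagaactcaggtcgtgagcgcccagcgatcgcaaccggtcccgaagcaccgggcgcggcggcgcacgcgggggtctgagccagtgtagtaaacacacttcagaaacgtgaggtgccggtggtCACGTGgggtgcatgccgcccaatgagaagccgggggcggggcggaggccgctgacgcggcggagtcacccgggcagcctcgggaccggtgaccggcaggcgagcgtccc
Per3: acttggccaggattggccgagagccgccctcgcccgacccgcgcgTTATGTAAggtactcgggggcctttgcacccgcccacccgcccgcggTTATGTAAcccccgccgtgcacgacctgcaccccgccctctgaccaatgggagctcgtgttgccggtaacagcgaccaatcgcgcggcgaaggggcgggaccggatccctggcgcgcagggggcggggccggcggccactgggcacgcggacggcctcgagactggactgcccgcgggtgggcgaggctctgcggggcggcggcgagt
The E-box lay at position -166 of Per1 and -60 of Cry1, counted from the start site, and was present in 7.15% of 32851 windows searched on both strands. The D-box occurred at -205 and -158 of Per3 and in 0.938% of windows. The antioxidant response element TGACNNNGC, the kind of site that Nrf2 binds, matched windows of 4 members, Per1, Cry1, Cry2 and Nr1d2, and 12.4% of all windows. The letters TGACG, the core of a cAMP response element, matched Per1, Cry1 and Cry2 and 20.8% of all windows, and in Cry1 they overlapped an antioxidant match. Neither the full element TGACGTCA (1.79% of windows) nor TonE, the osmotic response element bound by NFAT5 (5.03% of windows), was found in a member's window. A match is a description of these letters, not of binding.

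Levels were compared between genes as RPKM, reads per kilobase of exon scaled to library size (mean ± SD, n = 2). In WT cells with DMSO under isosmotic conditions Bhlhe40 was the highest member at 50.1 ± 2.23 RPKM, followed by Nr1d2 at 9.59 ± 0.813, Per1 at 8.03 ± 0.171 and Cry1 at 6.22 ± 0.322 RPKM. Clock (4.85 ± 0.685 RPKM) and Cry2 (3.99 ± 0.254 RPKM) did not differ beyond their spread. Nr1d1 had 3.26 ± 0.177, Per2 1.16 ± 0.388, Per3 0.492 ± 0.0479 and Dbp 0.263 ± 0.0789 RPKM. After 6 h of stress the order had changed. Per1 led with 32.7 ± 2.64 RPKM, Nr1d2 had 26.5 ± 0.491, and Cry1 (25.1 ± 0.342) and Bhlhe40 (24.7 ± 0.282 RPKM) were no longer apart. Per3 was last with 0.309 ± 0.0191 RPKM.

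**Figure D1:**
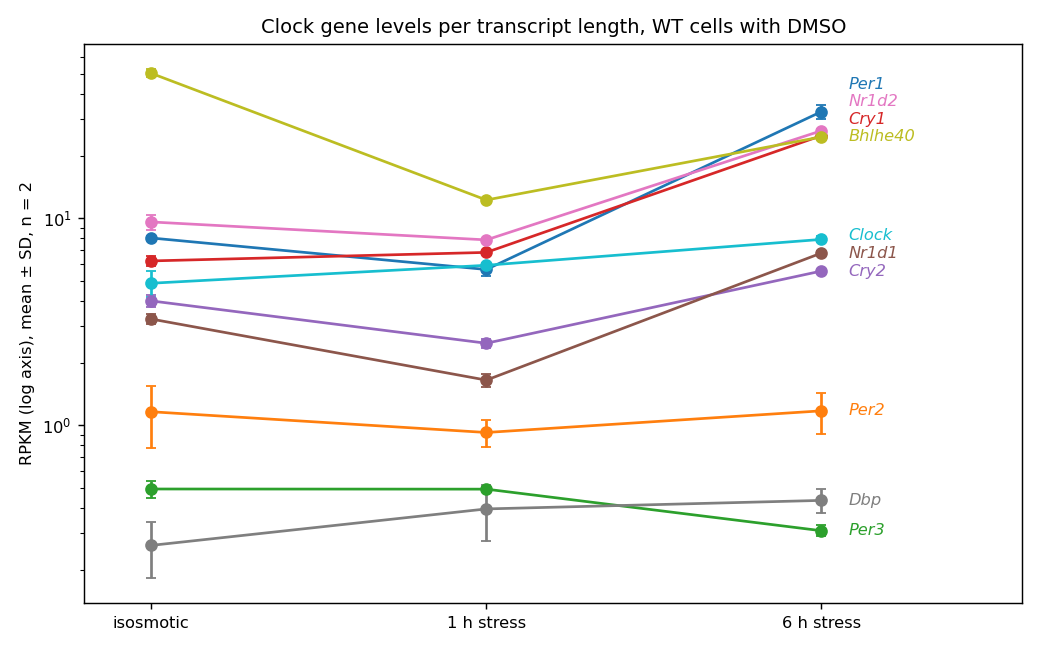
Levels of the 10 clock genes per kilobase of exon in WT cells with DMSO, on a log axis (points, mean of 2 libraries; bars, SD). Bhlhe40 led the isosmotic order at 50.1 RPKM and Per1 the order at 6 h at 32.7 RPKM.

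After 6 h of hyperosmotic stress, most clock genes had moved, as had most of all genes tested. In WT cells with DMSO, 8 of the 10 members passed the test against isosmotic cells (edgeR, Benjamini-Hochberg adjusted p under 0.05), 6 higher and 2 lower, where 57.6% of all 18959 genes tested passed it, 30.5% higher and 27.1% lower. The median log2 change was 0.74 over the members and 0.070 over all genes. Per1, Cry1, Nr1d2, Nr1d1, Clock and Cry2 rose, Bhlhe40 and Per3 fell, and Per2 and Dbp did not pass. From 1 h to 6 h, 8 members passed as well, 7 higher and 1 lower, where 54.4% of all genes did, 26.5% higher and 27.9% lower. Cry1 rose by 1.88 on the log2 scale over that span, Nr1d1 by 2.04, Nr1d2 by 1.76 and Cry2 by 1.16, and Per2 (log2 0.35) and Dbp (log2 0.15) did not pass. The Clock call in that comparison was lost with all 16 libraries (adjusted p = 0.116) and without any 1 of the 4 libraries at 1 h or 6 h (0.0591 to 0.108, log2 0.39 to 0.45), and that of Per3 without 1 h replicate 2 (0.0610, log2 -0.64) or 6 h replicate 2 (0.0812, log2 -0.60).

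Per1, which encodes a repressor of Clock and Bmal1, is on chromosome 11 (chr11:69095217-69109960, plus strand). Its level was 45.9 and 44.5 CPM in isosmotic cells with DMSO, 30.4 and 33.3 CPM at 1 h, and 195 and 174 CPM at 6 h. The groups did not overlap, and the lowest libraries were those at 1 h. Per1 rose 4.14-fold from isosmotic to 6 h (log2 2.05, SE 0.075, adjusted p = 1.13e-14 by edgeR). From 1 h to 6 h the rise was 5.81-fold (log2 2.54, adjusted p = 5.52e-16 by edgeR).

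Cry1 (chr10:85131700-85185064, minus strand), the partner of the Per proteins, had 20.01 and 21.5 CPM in isosmotic cells, 22.9 and 22.7 CPM at 1 h, and 84.5 and 82.9 CPM at 6 h. Isosmotic and 1 h libraries lay close together, and both 6 h libraries were far above them. The rise at 6 h was 4.10-fold (log2 2.03, SE 0.089, adjusted p = 1.61e-13 by edgeR). Its paralog Cry2 (chr2:92403646-92434043, minus strand) went down first and then up, with 24.1 and 26.3 CPM in isosmotic cells, 15.2 and 16.3 CPM at 1 h and 35.2 and 35.04 CPM at 6 h. None of these 3 pairs of libraries overlapped. Cry2 was 1.42-fold higher at 6 h than in isosmotic cells (log2 0.50, SE 0.10, adjusted p = 0.000280 by edgeR).

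Of the repressors of Arntl, Nr1d2 (chr14:18204054-18239127, minus strand) had 55.0 and 48.8 CPM in isosmotic cells, 42.3 and 42.7 CPM at 1 h and 145 and 141 CPM at 6 h. Nr1d1 (chr11:98767932-98775333, minus strand) had 10.4 and 9.64 CPM in isosmotic cells, 5.34 and 4.82 CPM at 1 h and 21.2 and 20.6 CPM at 6 h. Both genes were lowest at 1 h and highest at 6 h without overlap. At 6 h Nr1d2 had risen 2.80-fold (log2 1.49, SE 0.093, adjusted p = 4.27e-11 by edgeR). Nr1d1 had risen 2.12-fold (log2 1.08, SE 0.13, adjusted p = 6.75e-07 by edgeR). In the GENCODE M21 annotation 263 exon bases of Nr1d1 (8.55%) are shared with Thra on the opposite strand, which had 162 to 807 counts. No strand setting was given for the counting, so Nr1d1 counts may include reads of Thra or lack reads from the shared bases.

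Bhlhe40 (chr6:108660629-108666925, plus strand), the E-box repressor, followed another course. It had 243 and 229 CPM in isosmotic cells with DMSO, 57.3 and 57.9 CPM at 1 h, and 117 and 115 CPM at 6 h. The isosmotic pair was the highest of all 8 groups of the series, and the 6 h pair lay between that pair and the 1 h pair. Bhlhe40 fell 4.04-fold by 1 h (log2 -2.01, SE 0.072, adjusted p = 1.47e-13 by edgeR) and was still 1.997-fold below the isosmotic level at 6 h (log2 -0.998, adjusted p = 2.53e-10). Between 1 h and 6 h it rose 2.02-fold (log2 1.02, adjusted p = 2.33e-10).

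Clock (chr5:76209868-76304792, minus strand), the activator itself, changed less. It had 73.3 and 59.95 CPM in isosmotic cells, 79.7 and 83.0 CPM at 1 h and 111 and 106 CPM at 6 h. The 3 groups of 2 libraries did not overlap, but the difference between 1 h and isosmotic cells did not pass the test. The rise to 6 h was 1.65-fold (log2 0.73, SE 0.14, adjusted p = 0.000649 by edgeR). Per3 (chr4:151003652-151044665, minus strand), a Per family member that the loop can run without, had 5.05 and 4.40 CPM in isosmotic cells, 4.64 and 4.80 CPM at 1 h and 3.10 and 2.84 CPM at 6 h. Only the 6 h pair stood apart, 1.56-fold lower than isosmotic (log2 -0.64, SE 0.21, adjusted p = 0.0143 by edgeR). The adjusted p for Per3 was 0.0546 with DESeq2, 0.0929 without isosmotic replicate 1 (log2 -0.54) and 0.0815 without 6 h replicate 2 (log2 -0.59).

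Per2 (chr1:91415982-91459324, minus strand), a core repressor like Per1, had 8.41 and 5.195 CPM in isosmotic cells, 5.95 and 4.85 CPM at 1 h and 7.97 and 5.77 CPM at 6 h. These pairs overlapped, and the log2 difference between 6 h and isosmotic was 0.04 with a 95% interval of -0.48 to 0.56. Dbp (chr7:45705088-45710203, plus strand) had low counts, 28 to 65 a library. It had 0.953 and 0.619 CPM in isosmotic cells, 0.928 and 1.43 CPM at 1 h and 1.42 and 1.17 CPM at 6 h. Dbp passed no test in any of the 14 comparisons. Its interval for 6 h against isosmotic ran from -0.14 to 1.63 on the log2 scale. A rise of the size seen for Per1 was outside that interval, and differences inside it were not resolved. Dbp also shares 539 exon bases (18.0%) with Sphk2 on the opposite strand, which had 510 to 1419 counts.

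**Figure D2:**
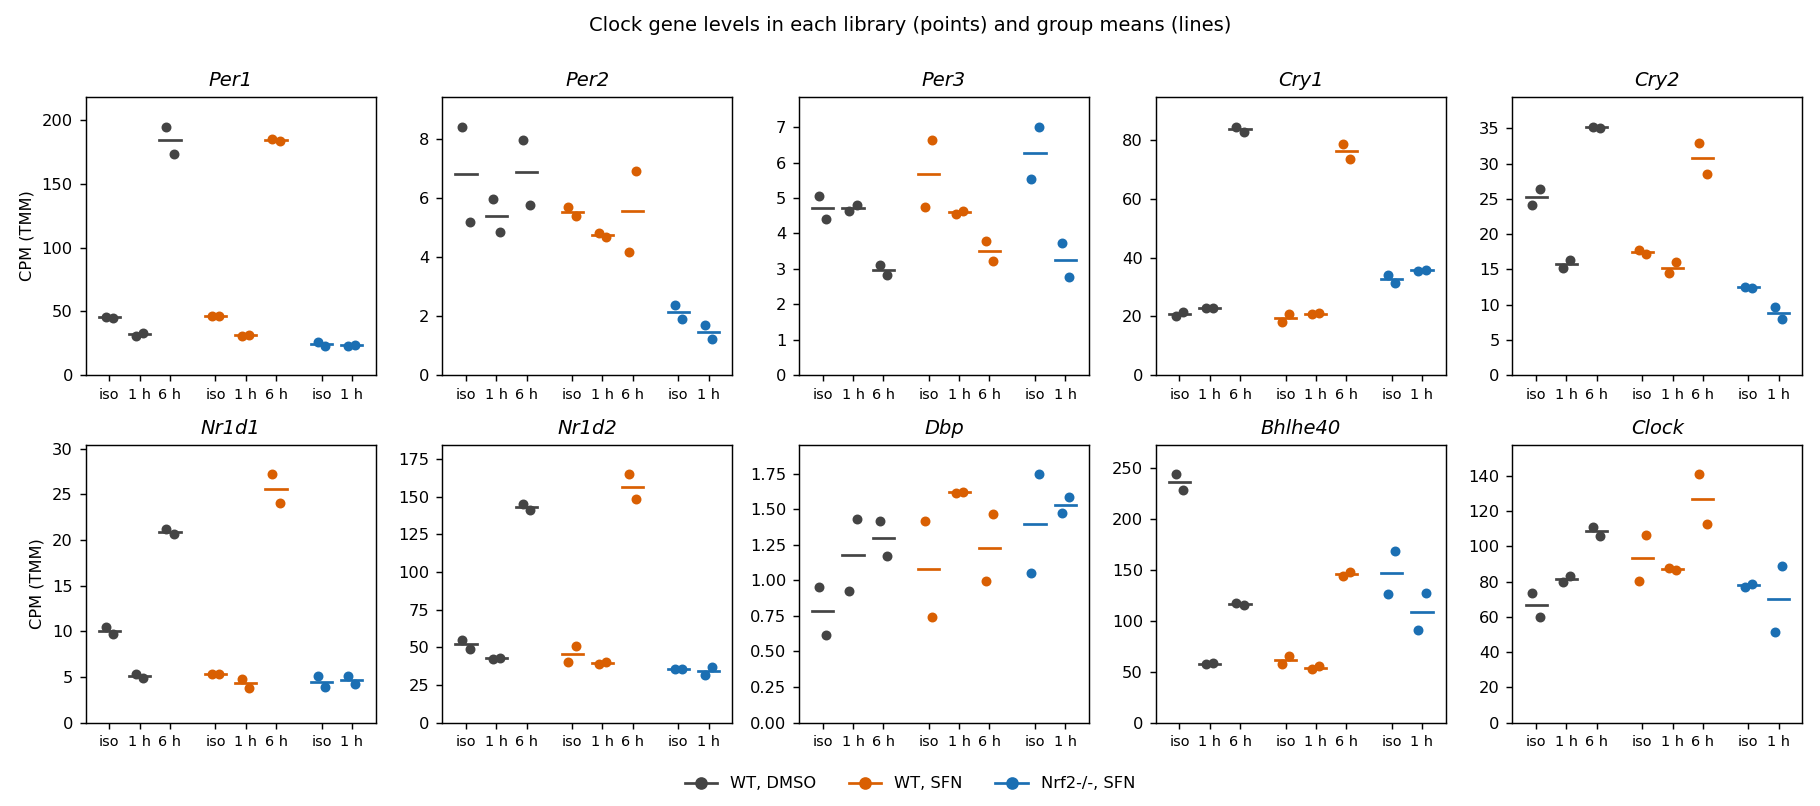
Level of each clock gene in all 16 libraries (points, CPM scaled by TMM; short lines, group means; each panel has its own axis from 0) for isosmotic cells and cells after 1 h or 6 h of stress. Per1, Cry1, Nr1d1 and Nr1d2 were highest at 6 h with either pretreatment, while Bhlhe40 was highest in isosmotic WT cells with DMSO.

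Markers of other cell types also differed at 6 h. The summed level of 4 leukocyte markers was 13.1 and 9.11 CPM at 6 h against 2.69 and 3.18 CPM in isosmotic cells with DMSO, and 2 of 3 tested markers were higher. Over 3 endothelial markers the sums were 3.999 and 4.32 CPM against 0.0476 and 0.177 CPM, with both tested markers higher, and over 6 fibroblast markers they were 6.11 and 7.66 CPM against 3.19 and 2.81 CPM, with 2 of 3 tested higher. Ptprc, Itgam, Pecam1, Cdh5, Kdr, Pdgfra, Pdgfrb, Col1a2 and Col3a1 were at 0 in at least 1 library, and the T cell marker Cd3e and the fibroblast gene Dcn had at most 2 and 3 counts in any. The epithelial sum of 12 markers was 4043 and 4074 CPM at 6 h against 2354 and 2628 CPM, with 5 of the 12 higher and 2 lower. Most of that rise came from Pax2 (119 and 120 to 1136 and 1146 CPM) and Pax8 (93.0 and 100.2 to 715 and 730 CPM), while Krt8 fell from 996 and 1109 to 802 and 801 CPM. The part of these markers in the clock gene differences was not tested.

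After 1 h of stress 5 clock transcripts were called lower. In WT cells with DMSO, 5 of the 10 members passed the test and all 5 were lower, where 22.9% of all genes passed and 8.53% were called lower. Besides Bhlhe40, Nr1d1 fell 1.94-fold (log2 -0.96, SE 0.14, adjusted p = 5.49e-05), Cry2 1.58-fold (log2 -0.66, SE 0.10, adjusted p = 0.000117) and Per1 1.40-fold (log2 -0.49, SE 0.076, adjusted p = 0.000101 by edgeR). Nr1d2 fell 1.21-fold (log2 -0.27, SE 0.093, adjusted p = 0.0425 by edgeR). That last call was lost under 9 of 11 alternatives, with adjusted p up to 0.234 without isosmotic replicate 1 (log2 -0.18), 0.167 without 1 h replicate 1, 0.144 without 1 h replicate 2 and 0.0555 with the replicate number as a block. Clock was higher at 1 h without overlap, which describes 2 against 2 libraries only. It did not pass (log2 0.31, unadjusted p = 0.0456, adjusted p = 0.136 by edgeR). Clock passed without the filter on low counts (adjusted p = 0.00185 by edgeR) and with only the libraries compared in the fit (0.0426). Per2 (log2 -0.31), Per3 (0.02), Cry1 (0.16) and Dbp (0.60) did not pass. The median over the members was -0.29 on the log2 scale against 0.019 over all genes.

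After SFN pretreatment the 6 h comparison again gave 8 of 10 members, 7 higher and 1 lower, where 59.7% of all genes passed, 31.8% higher and 27.9% lower. Nr1d1 rose 4.85-fold (log2 2.28, SE 0.14, adjusted p = 2.73e-11 by edgeR), from 5.28 and 5.36 CPM to 27.2 and 24.1 CPM. Per1 rose 4.02-fold from 46.2 and 46.3 CPM to 186 and 184 CPM, and Cry1 rose 3.93-fold from 18.0 and 20.9 CPM to 78.7 and 73.8 CPM. Nr1d2 rose 3.45-fold, from 40.4 and 50.96 CPM to 165 and 149 CPM. In each of these genes both stressed libraries lay far above both isosmotic ones. Bhlhe40, which had fallen in cells with DMSO, rose 2.39-fold from 57.5 and 64.9 CPM to 144 and 148 CPM (log2 1.26, SE 0.071, adjusted p = 8.58e-12 by edgeR). Cry2 rose 1.77-fold from 17.8 and 17.2 CPM to 33.0 and 28.6 CPM. Clock rose 1.37-fold (log2 0.45, adjusted p = 0.0126), with 80.2 and 106 CPM before and 141 and 113 CPM after. Per3 fell 1.62-fold (log2 -0.70, adjusted p = 0.00739), with 4.75 and 6.63 CPM before and 3.79 and 3.21 CPM after. Per2 (log2 0.01) and Dbp (0.22) did not pass. The calls of Clock and Per3 depended on single libraries: for Clock the adjusted p was 0.0867 with all 16 libraries, 0.120 without 6 h replicate 1 (log2 0.28) and 0.0731 without isosmotic replicate 1 (log2 0.26), and for Per3 it was 0.0678 without 6 h replicate 2 (log2 -0.59) and 0.156 without isosmotic replicate 2 (log2 -0.44).

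At 1 h after SFN only Per1 passed and was lower, where 18.3% of all genes passed and 7.81% were called lower. It fell 1.49-fold to 30.8 and 31.3 CPM (log2 -0.58, SE 0.076, adjusted p = 1.85e-05 by edgeR). Bhlhe40 stood at 52.3 and 55.5 CPM (log2 -0.19, 95% interval -0.34 to -0.04, adjusted p = 0.0775) and Nr1d2 at 38.7 and 39.9 CPM (log2 -0.22, adjusted p = 0.108). Without isosmotic replicate 1 both passed, at adjusted p = 0.0154 (log2 -0.27) for Bhlhe40 and 0.00374 (log2 -0.38) for Nr1d2, so the count was 3 in place of 1. The log2 estimates of the others were -0.31 for Nr1d1, -0.32 for Per3, -0.22 for Per2, -0.20 for Cry2, -0.10 for Clock, 0.10 for Cry1 and 0.60 for Dbp.

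**Figure D3:**
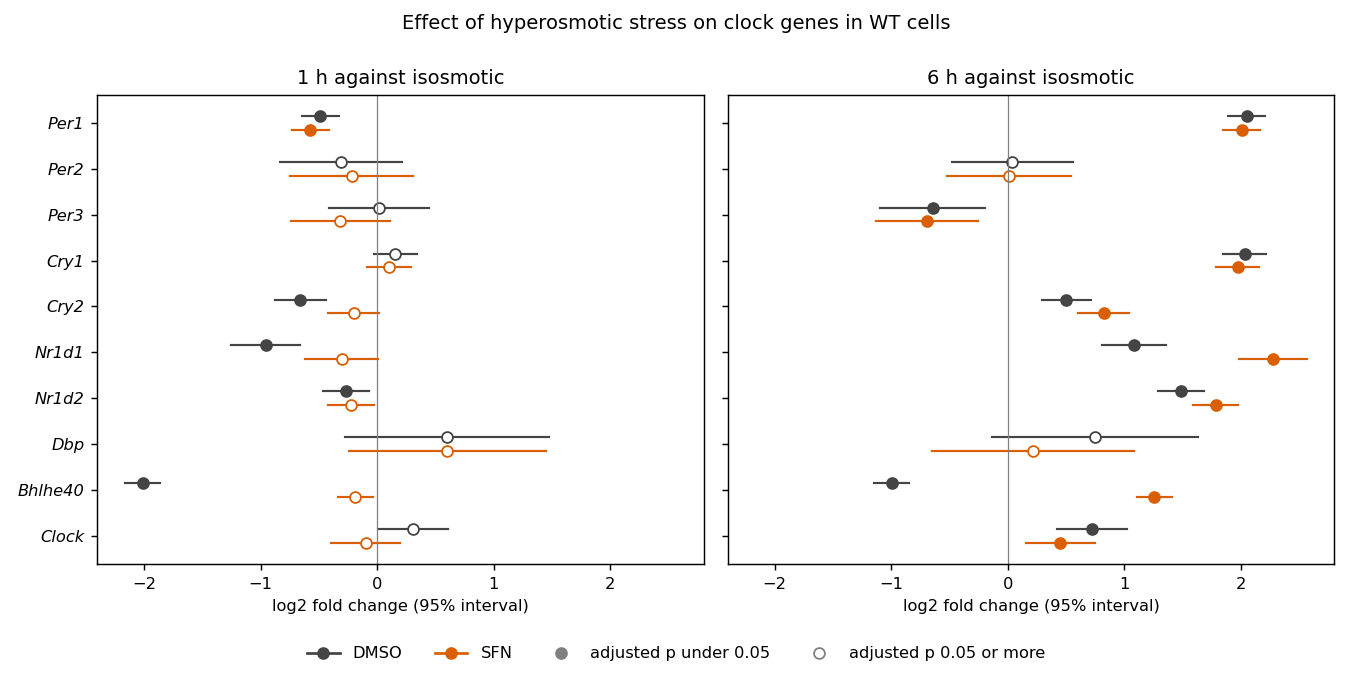
Log2 change of each clock gene after 1 h (left) and 6 h (right) of stress against isosmotic WT cells, with DMSO or SFN (points, estimates from 2 against 2 libraries; bars, 95% intervals; filled, adjusted p under 0.05). Bhlhe40 changed by -0.998 with DMSO and by 1.26 with SFN at 6 h, while Per1 and Cry1 were near 2 with either pretreatment.

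SFN alone changed 4 members. Under isosmotic conditions 4 of 10 passed, 3 lower and 1 higher, where 15.2% of all genes passed, 6.88% lower and 8.28% higher. Bhlhe40 was 3.80-fold lower with SFN (57.5 and 64.9 against 243 and 229 CPM, log2 -1.93, SE 0.072, adjusted p = 4.11e-13 by edgeR). Nr1d1 was 1.86-fold lower (5.28 and 5.36 against 10.4 and 9.64 CPM, log2 -0.89, SE 0.14, adjusted p = 0.000178), and Cry2 was 1.42-fold lower (17.8 and 17.2 against 24.1 and 26.3 CPM, log2 -0.51, SE 0.10, adjusted p = 0.00223 by edgeR). The groups of these 3 genes, already called by the test, did not overlap, which describes 2 against 2 libraries only. Clock was 1.42-fold higher (80.2 and 106 against 73.3 and 59.95 CPM, log2 0.50, SE 0.14, adjusted p = 0.0280 by edgeR). The Clock call was lost with all 16 libraries in the fit (adjusted p = 0.261) or only the 4 compared (0.0624), without DMSO replicate 2 (0.268, log2 0.36) and without SFN replicate 2 (0.175, log2 0.29). Nr1d2 passed without SFN replicate 2 (0.0246, log2 -0.34). Per1 was at 46.2 and 46.3 CPM with SFN and 45.9 and 44.5 CPM with DMSO, and the 95% interval of its log2 difference was -0.10 to 0.21. For Cry1 that interval was -0.26 to 0.12. Nr1d2 (log2 -0.16), Per2 (-0.28), Per3 (0.29) and Dbp (0.46) did not pass either.

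Under stress no member passed the test between SFN and DMSO. At 1 h 0 of 10 members passed by edgeR, 0 had an unadjusted p under 0.05, and DESeq2 also called 0; 0.533% of all genes passed. The intervals of the log2 difference ran from -0.25 to 0.05 for Bhlhe40, from -0.20 to 0.12 for Per1 and from -0.56 to 0.07 for Nr1d1, and the widest was that of Dbp, -0.38 to 1.30. The log2 estimates were -0.13 for Cry1, -0.05 for Cry2, -0.12 for Nr1d2, -0.19 for Per2, -0.04 for Per3 and 0.10 for Clock. At 6 h 0 of 10 passed by edgeR, where 0.243% of all genes passed, and 2 had an unadjusted p under 0.05. Those were Bhlhe40 (144 and 148 against 117 and 115 CPM, 1.26-fold, log2 0.33, SE 0.070, adjusted p = 0.0551) and Nr1d1 (27.2 and 24.1 against 21.2 and 20.6 CPM, 1.23-fold, log2 0.30, SE 0.13, adjusted p = 0.511 by edgeR). In both, the libraries with SFN were above those with DMSO without overlap. That describes 2 against 2 libraries, and the share of all genes without overlap was not counted. Bhlhe40 was called by DESeq2 (adjusted p = 0.00530) and by 3 other alternatives. The other log2 estimates ran from -0.31 for Per2 through Cry2 (-0.19), Cry1 (-0.13), Dbp (-0.07), Per1 (0.01), Nr1d2 (0.13) and Clock (0.23) to 0.24 for Per3.

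**Figure D4:**
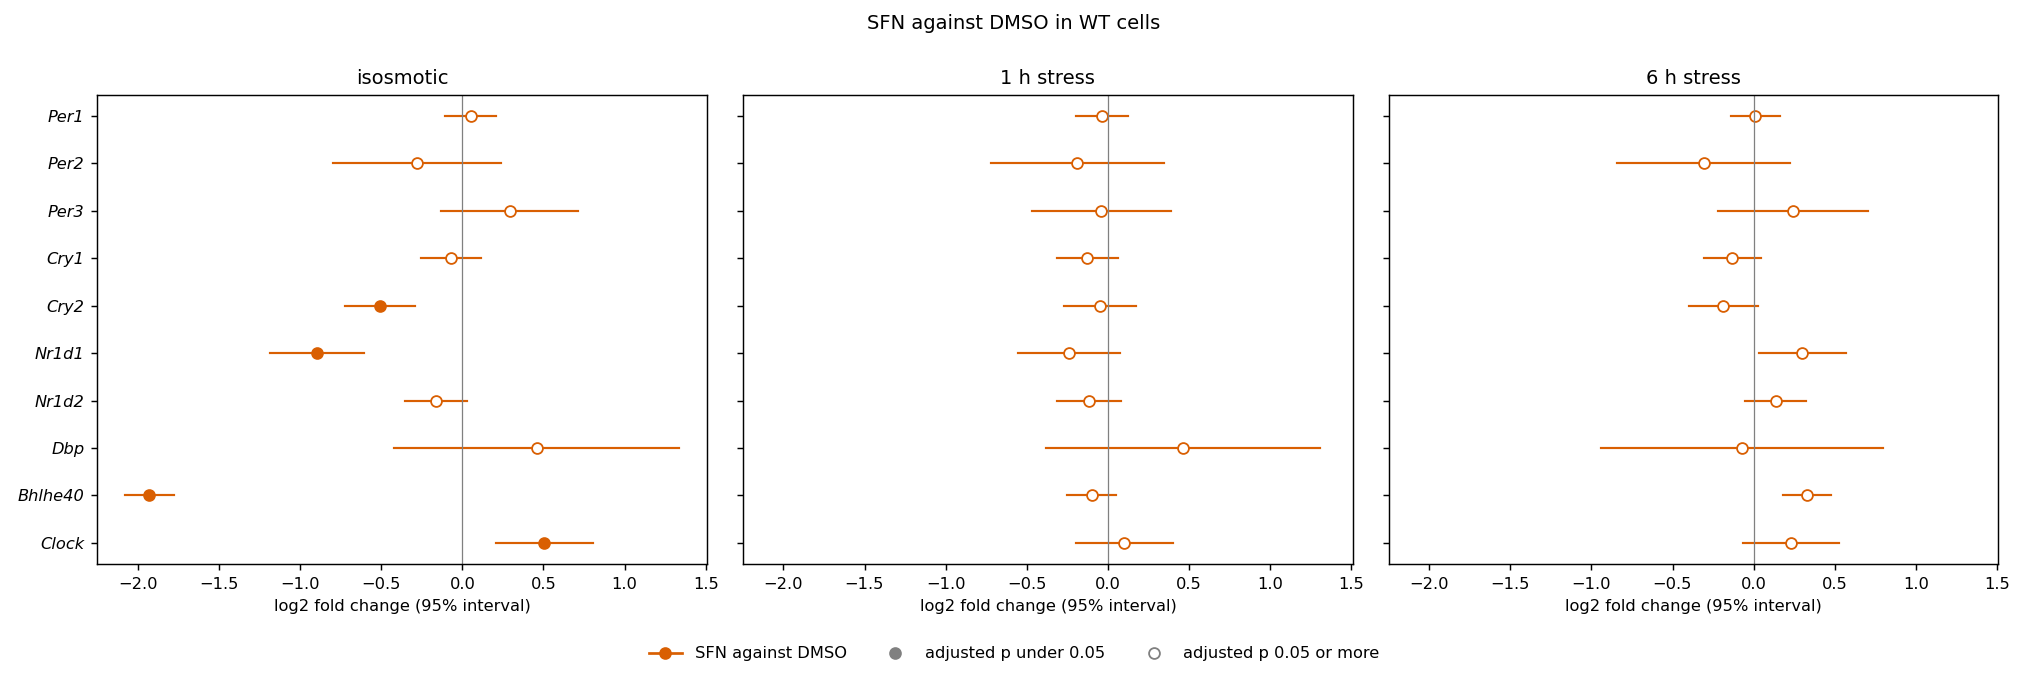
Log2 difference between SFN and DMSO for each clock gene in WT cells, isosmotic and after 1 h and 6 h of stress (points, estimates from 2 against 2 libraries; bars, 95% intervals; filled, adjusted p under 0.05). The isosmotic panel holds the 4 filled points, led by Bhlhe40 at -1.93.

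The difference between the 2 stress responses was tested directly as an interaction. At 1 h it passed for 1 member, Bhlhe40 (3.55-fold, log2 1.83, SE 0.10, adjusted p = 4.14e-10 by edgeR), where 3.09% of all genes passed, 1.92% in that direction. At 6 h it passed for 2 members, where 4.24% of all genes did, 2.19% in the direction of both members. These were Bhlhe40 (4.78-fold, log2 2.26, SE 0.10, adjusted p = 1.58e-11) and Nr1d1 (2.29-fold, log2 1.19, SE 0.19, adjusted p = 0.000468 by edgeR). Without SFN isosmotic replicate 1 Clock also passed at 1 h (0.0226, log2 -0.59), and without SFN isosmotic replicate 2 Nr1d2 passed at 6 h (0.0194, log2 0.47). For Nr1d1 at 1 h the log2 estimate was 0.65 with an adjusted p of 0.0968. All of these comparisons share the isosmotic libraries, among which Bhlhe40 and Nr1d1 were higher with DMSO than with SFN. At 1 h the estimates of the others were 0.46 for Cry2 (adjusted p = 0.106), -0.40 for Clock, -0.33 for Per3, -0.09 for Per1, 0.09 for Per2, -0.06 for Cry1, 0.05 for Nr1d2 and 0.0031 for Dbp. At 6 h they were 0.32 for Cry2, 0.30 for Nr1d2, -0.53 for Dbp, -0.27 for Clock, -0.05 for Per3 and -0.03 for Per2. For Per1 and Cry1 the interaction at 6 h had intervals of -0.26 to 0.17 and -0.32 to 0.20 on the log2 scale.

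In Nrf2-/- cells with SFN, 6 of the 10 members differed from WT cells with SFN under isosmotic conditions, 4 lower and 2 higher, where 34.1% of all 19509 genes tested passed, 18.4% lower and 15.7% higher. Per2 showed the largest drop among the members, 2.36 and 1.91 CPM against 5.69 and 5.37 CPM (2.59-fold lower, log2 -1.37, SE 0.30, adjusted p = 0.00242 by edgeR). Per1 was 1.91-fold lower, with 25.7 and 22.8 against 46.2 and 46.3 CPM (log2 -0.93, SE 0.099, adjusted p = 3.95e-06). Cry2 had 12.5 and 12.4 CPM against 17.8 and 17.2 CPM (1.41-fold lower, adjusted p = 0.00884 by edgeR), and Nr1d2 had 35.4 and 35.5 CPM against 40.4 and 50.96 CPM (1.29-fold lower, adjusted p = 0.0282). The groups of these 4 called genes did not overlap, which describes 2 against 2 libraries only. Bhlhe40 was 2.40-fold higher, with 126 and 168 CPM (log2 1.26, SE 0.15, adjusted p = 1.29e-05), and Cry1 was 1.67-fold higher, with 33.99 and 31.2 CPM against 18.0 and 20.9 CPM (log2 0.74, SE 0.10, adjusted p = 6.37e-05 by edgeR). The Bhlhe40 level of Nrf2-/- cells lay between those of WT cells with SFN and WT cells with DMSO. Cry2 and Nr1d1, the other members that SFN lowered in WT cells, had means below both. Cry2 had 12.4 CPM in Nrf2-/- cells, 17.5 in WT cells with SFN and 25.2 with DMSO, and Nr1d1 had 4.47, 5.32 and 10.0 CPM. Nr1d1 was not called between the genotypes. Without Nrf2-/- cells with DMSO, the part of SFN in the Nrf2-/- levels cannot be read. The Nr1d2 and Cry2 calls were less firm. For Nr1d2 the adjusted p was 0.0537 with DESeq2 and 0.0620 with RLE scaling, 0.337 without WT replicate 2 (log2 -0.19), 0.112 without Nrf2-/- replicate 1 and 0.114 without Nrf2-/- replicate 2. Cry2 had 0.0555 without Nrf2-/- replicate 2 and 0.0578 without WT replicate 1. Nr1d1 (log2 -0.25), Clock (-0.26), Per3 (0.14) and Dbp (0.39) did not pass.

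Markers of cell types also differed between the genotypes with SFN. Under isosmotic conditions the 12 epithelial markers summed to 2189 and 2092 CPM in Nrf2-/- cells and 1914 and 1789 CPM in WT cells, with 3 higher and 4 lower. Epcam had 264 and 304 against 50.3 and 47.3 CPM, Cdh1 438 and 438 against 138 and 147 CPM, and Pax2 27.5 and 26.2 against 139 and 146 CPM. The 6 fibroblast markers summed to 2.96 and 4.41 against 4.48 and 5.08 CPM, with 2 of 4 tested higher and 1 lower. Among them Col3a1 had 44 and 85 counts and Col1a2 16 and 17 counts in Nrf2-/- cells, and both were at 0 in the WT libraries. The leukocyte sums were 2.50 and 3.36 against 1.93 and 2.72 CPM, with 1 of 3 tested higher, and the endothelial sums 0.341 and 0.161 against 0.0536 and 0.259 CPM, with 0 of 3 called. After 1 h of stress 3 epithelial markers were higher and 3 lower. The part of these markers in the genotype differences of the clock genes was not tested.

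After 1 h of stress 5 members differed between the genotypes, 3 lower and 2 higher, where 31.5% of all genes passed, 16.2% lower and 15.3% higher. Per2 had 1.70 and 1.21 CPM in Nrf2-/- cells against 4.83 and 4.67 CPM in WT cells (3.26-fold lower, log2 -1.70, SE 0.31, adjusted p = 0.000744 by edgeR). Cry2 had 9.71 and 7.93 against 14.5 and 15.99 CPM (1.73-fold lower, adjusted p = 0.000368), and Per1 had 22.5 and 23.9 against 30.8 and 31.3 CPM (1.34-fold lower, adjusted p = 0.00454 by edgeR). Bhlhe40 was 2.02-fold higher at 90.5 and 127 CPM against 52.3 and 55.5 CPM (adjusted p = 0.000119), and Cry1 was 1.71-fold higher at 35.6 and 35.9 CPM against 20.8 and 21.0 CPM (adjusted p = 4.95e-05 by edgeR). None of these groups overlapped, which describes 2 against 2 libraries of genes already called. With weights for library quality only the Bhlhe40 and Cry1 calls were left, and Per2 then had an adjusted p of 0.189, Per1 0.199 and Cry2 0.0693. With only the libraries compared in the fit Bhlhe40 (0.0524), Per1 (0.173) and Cry2 (0.0827) were lost. Clock (51.4 and 88.6 CPM in Nrf2-/- cells) did not pass, but without Nrf2-/- replicate 2 it did (adjusted p = 0.00152, log2 -0.77), as did Nr1d2 (0.0364, log2 -0.33). Per3 passed without Nrf2-/- replicate 1 (0.0412, log2 -0.72). With all libraries the log2 estimates were -0.32 for Clock, -0.50 for Per3, -0.20 for Nr1d2, -0.08 for Dbp and 0.12 for Nr1d1.

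**Figure D5:**
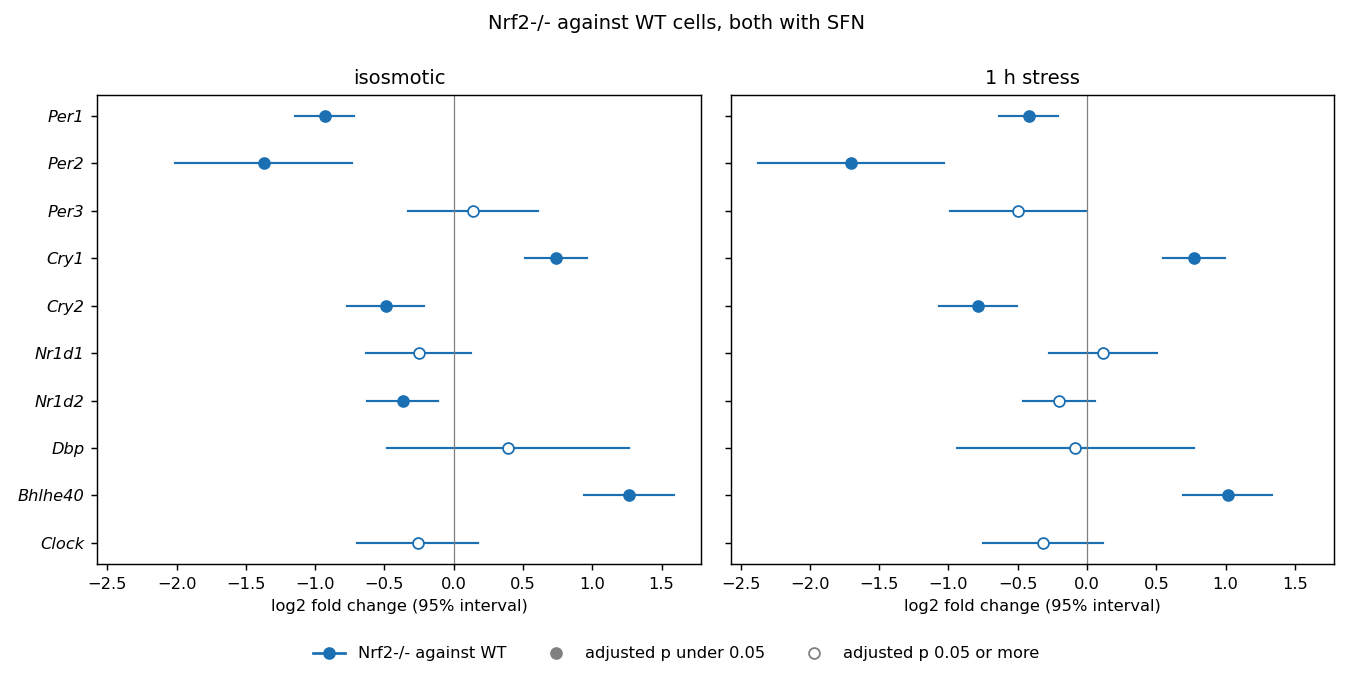
Log2 difference between Nrf2-/- and WT cells, both with SFN, for each clock gene, isosmotic (left) and after 1 h of stress (right) (points, estimates from 2 against 2 libraries; bars, 95% intervals; filled, adjusted p under 0.05). Per1, Per2 and Cry2 were lower and Cry1 and Bhlhe40 higher in both panels.

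Within Nrf2-/- cells, 2 members were called lower after 1 h of stress, where 7.17% of all genes passed and 2.81% were called lower. Per3 fell 1.93-fold, from 5.55 and 7.01 CPM to 3.74 and 2.77 CPM (log2 -0.95, SE 0.23, adjusted p = 0.0213 by edgeR). Cry2 fell 1.41-fold, from 12.5 and 12.4 CPM to 9.71 and 7.93 CPM (log2 -0.50, SE 0.13, adjusted p = 0.0364 by edgeR). Both calls were lost with only the libraries compared in the fit (adjusted p = 0.283 for Per3 and 0.644 for Cry2 by edgeR). Neither gene was called with weights for library quality (adjusted p = 0.615 and 0.819), and without isosmotic replicate 2 they had 0.199 (log2 -0.77) and 0.168 (log2 -0.50). Cry2 had 0.0518 with the replicate block, 0.144 without isosmotic replicate 1 and 0.0858 without stressed replicate 2 (log2 -0.36). Without that library Bhlhe40 (0.000184, log2 -0.70) and Clock (0.0143, log2 -0.60) passed. Per1 had 22.5 and 23.9 CPM against 25.7 and 22.8 CPM (log2 -0.06, 95% interval -0.28 to 0.15). The others had log2 estimates of -0.55 (Per2), -0.43 (Bhlhe40), -0.15 (Clock), -0.05 (Nr1d2), 0.07 (Nr1d1), 0.13 (Cry1) and 0.13 (Dbp). Whether the 1 h response differed between genotypes was tested as an interaction, which 0 of 10 members passed by edgeR, where 0.123% of all genes passed. Per1 alone had an unadjusted p under 0.05 (log2 0.51, 95% interval 0.21 to 0.81, adjusted p = 0.276), and it passed without Nrf2-/- stressed replicate 1 (0.00822, log2 0.56) or 2 (0.0391, log2 0.47), while Bhlhe40 passed without replicate 2 (0.0467, log2 -0.51). The other interaction estimates were -0.63 for Per3, -0.48 for Dbp, -0.33 for Per2, -0.29 for Cry2, -0.25 for Bhlhe40, -0.06 for Clock, 0.03 for Cry1, 0.17 for Nr1d2 and 0.37 for Nr1d1. Nrf2-/- and WT cells are separate lines here, so loss of Nrf2 and other differences between the lines cannot be told apart.

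Other clock components were read from a list of 32 partners and regulators, of which 30 could be tested. At 6 h with DMSO 19 were higher and 6 lower, where 57.6% of all genes passed, 30.5% higher and 27.1% lower, and the list's median log2 change was 0.33 against 0.070 over all genes. Arntl, which encodes Bmal1, rose 2.83-fold from 11.4 and 10.4 CPM to 29.3 and 31.6 CPM (log2 1.502, adjusted p = 6.23e-10 by edgeR). Nfil3, a D-box repressor, rose 3.35-fold from 38.8 and 43.9 CPM to 140 and 133 CPM. Both genes had 6 h libraries well above the isosmotic ones. Tef, a D-box activator related to Dbp, rose 1.64-fold (40.2 and 36.7 to 63.6 and 60.3 CPM), and Ciart, which represses Clock and Bmal1, rose 2.52-fold (5.91 and 6.50 to 13.4 and 17.4 CPM). The ROR receptor gene Rorb rose 11.9-fold from 1.48 and 1.44 CPM to 18.7 and 15.4 CPM, and Rora, at 25 and 26 counts before and 65 and 38 after, had an adjusted p of 0.0489. Crem, a regulator of cAMP response elements, rose 2.79-fold. Bhlhe41, the paralog of Bhlhe40, fell 3.30-fold, Btrc, which encodes a ubiquitin ligase adaptor for Per proteins, fell 3.53-fold, and Tipin, the partner of Timeless, fell 2.41-fold. Npas2, which can stand in for Clock, had at most 6 counts in any library, and Hlf at most 19.

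With SFN the list gave 17 higher and 7 lower at 6 h, where 59.7% of all genes passed, and 1 higher and 1 lower at 1 h, where 18.3% did. With DMSO at 1 h it gave 4 higher and 4 lower, where 22.9% of all genes passed, among them Nfil3, which fell 1.82-fold to 21.8 and 23.1 CPM (log2 -0.86, adjusted p = 1.70e-07 by edgeR). SFN alone gave 3 higher and 2 lower, where 15.2% of all genes passed, with Nfil3 1.55-fold lower at 27.1 and 25.6 CPM (log2 -0.63, adjusted p = 1.47e-05). The interaction of SFN with stress passed for Nfil3 at 1 h (log2 0.69, adjusted p = 0.000897) and at 6 h (log2 0.66, adjusted p = 0.000704). In Nrf2-/- cells under isosmotic conditions 8 were higher and 6 lower, where 34.1% of all genes passed. Ciart was 2.45-fold higher than in WT cells, whereas Prkaa2, a catalytic subunit of the kinase AMPK, was 6.69-fold lower (2.25 and 3.04 against 15.7 and 19.7 CPM) and Sik1, a kinase acting on CREB coactivators, was 3.17-fold lower. Tef was 1.63-fold lower and Arntl did not pass (13.97 and 12.92 against 11.45 and 11.43 CPM, adjusted p = 0.167). After 1 h of stress Arntl was 1.45-fold higher in Nrf2-/- cells (15.6 and 14.8 against 11.2 and 9.72 CPM, log2 0.54, adjusted p = 0.00381 by edgeR), and 11 of the list were higher and 5 lower, where 31.5% of all genes passed.

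Of 17 symbols listed as clock outputs, 16 had a row in the counts and 15 could be tested. At 6 h 10 were higher and 2 lower with DMSO and 11 were higher and 1 lower with SFN, where 57.6% and 59.7% of all genes passed. Sgk1, an aldosterone-induced kinase that raises sodium channel activity, rose 18.4-fold with DMSO (37.2 and 38.05 to 681 and 682 CPM, log2 4.20, SE 0.091, adjusted p = 3.46e-18 by edgeR). Klf9 rose 3.37-fold, Lonrf3 3.20-fold and E2f8 2.35-fold. At 1 h Klf10 fell 3.78-fold from 156 and 152 CPM to 39.5 and 41.1 CPM, and SFN alone lowered it 2.81-fold to 51.7 and 56.7 CPM. The sodium-proton exchanger gene Slc9a3 had 0 and 0 counts in isosmotic cells with DMSO, 22 and 20 counts at 1 h and 3 and 0 counts at 6 h. These output genes are also regulated by other pathways.

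Genes whose pattern was most like that of a member were found by Pearson's correlation of log2 CPM over the 8 group means, which share libraries and depth. For Per1 they were Ikbkb (r = 0.997), Orc1 (0.996) and Ampd2 (0.996). For Nr1d1 they were Stambpl1 (r = 0.995), Top3a (0.993) and Sfr1 (0.991). For Dbp, whose counts were low, the highest values were lower, with Manba (r = 0.942), Arhgap21 (0.921) and Trak2 (0.920).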

How the data were processed

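RNA sequencing was read from 16 libraries, 2 for each of 8 groups taken from the sample labels. The authors deposited raw counts per gene symbol, unnormalized, with reads aligned to mm10. The paper names Hisat2 and the submitters' processing notes name Bowtie2, with SAMtools and featureCounts in the notes; versions, annotation and strand setting are not given in the sources used here. Reads shared by overlapping or related genes may have been split or lost. Of counts from 1 to 10, 58.0% to 68.5% were even, so a count may not stand for an independent fragment. The counts entered the tests unchanged. Lines without a gene name, 2 and 3 lines in single libraries, were left out. The isosmotic WT libraries with SFN are numbered 1 and 2 in their titles and 2 and 3 in their column names; titles were used here, in the replicate block too. A label calls the RNA primary cells and all others mIMCD3.

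Totals were 34484296 to 50774875. Tests used R 4.3.3 and edgeR 4.0.16 (TMM, filterByExpr, robust quasi-likelihood F-test, Benjamini-Hochberg adjustment over all genes tested, threshold 0.05, 95% intervals), with 18959 genes on the 12 WT libraries and 19509 on all 16. Library pairs differed by more than counting noise. The p-values rest on the spread within pairs, estimated over all 6 WT groups or all 8 groups and moderated across genes. The wide Nrf2-/- pair at 1 h therefore shared its spread with the tighter pairs. Statements that groups did not overlap describe 2 against 2 libraries, and the share of all genes without overlap was not counted. Scripts were tested on simulated counts. RPKM used merged exon lengths of GENCODE M21 (GRCm38), which may differ from the annotation used for counting.

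All 10 members are named in every comparison. Of the listed partners and outputs, Arntl, Npas2, Nfil3, Rora, Tef and Ciart are named, and others from among those called with at least a 2-fold change in the comparison, not all of which are named. A gene that meets this rule is not reported here. The members and lists were chosen with earlier results of these data known. Alternatives were DESeq2 1.42.0, RLE scaling, no filter, a stricter filter of 10 counts in each library, the replicate number as a block, other sets of libraries, library quality weights (limma 3.58.1) and leaving out each library.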

Additional observations from a re-analysis of the deposited data

Results flagged for a closer look

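Of the member results, 3 were singled out because the stress response differed between DMSO and SFN in a direct test. For Bhlhe40 the response to 1 h of stress was 1.83 higher on the log2 scale after SFN, and that to 6 h was 2.26 higher, since it fell with DMSO and rose with SFN at 6 h. For Nr1d1 the response to 6 h was 1.19 higher after SFN. All 3 interactions passed under each of the 15 alternatives run for them, and all rest on the isosmotic libraries, in which SFN and DMSO differed for both genes.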

How the results depend on the processing

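Over 14 comparisons of 10 members, 50 results were called, 35 of them under every alternative, 15 were lost and 14 others gained under at least 1, and 0 of the 50 changed sign. Results that were not called could change sign, as Clock did between genotypes at 1 h (log2 -0.77 to 0.03) and for 1 h stress in Nrf2-/- cells (-0.60 to 0.18). Counts of members called moved by 1 in these cases: SFN isosmotic, 4 to 3 with all 16 libraries or only those compared; 1 h stress with DMSO, 5 to 6 without the filter and to 4 with DESeq2, RLE scaling, the filter of 10 counts, the block or all 16 libraries. With DMSO 8 became 7 at 6 h with DESeq2 and for 6 h against 1 h with all 16 libraries, as at 6 h with SFN, and between genotypes isosmotic 6 became 5 with DESeq2 or RLE scaling. Other moves were as follows. For SFN against DMSO at 6 h, 0 became 1 (Bhlhe40) with DESeq2, without the filter, with the filter of 10 counts or with only the libraries compared. Without the filter, 1 h stress with SFN and the interaction at 1 h each went from 1 to 2. Between genotypes at 1 h, 5 became 2 with quality weights and with only the libraries compared. For 1 h stress in Nrf2-/- cells, 2 became 1 with the filter of 10 counts or the replicate block, and 0 with quality weights or only the libraries compared. Leaving out each library in turn gave 3 to 4 members for SFN isosmotic, 0 to 0 at 1 h and 0 to 0 at 6 h. With DMSO it gave 4 to 5 for 1 h stress, 7 to 8 for 6 h and 6 to 7 for 6 h against 1 h. With SFN it gave 1 to 3 for 1 h and 7 to 7 for 6 h. The interactions gave 1 to 2 (1 h), 2 to 3 (6 h) and 0 to 2 (genotype), the genotype comparisons 4 to 5 (isosmotic) and 5 to 7 (1 h), and 1 h stress in Nrf2-/- cells 0 to 3. The cause of these shifts was not tested. Over 28 pairs of groups same-numbered deviations correlated at r = -0.246 to 0.403 (median -0.011, 3 over 0.1). Replicate numbers therefore did not pair all groups alike, and whether some groups were paired was not tested. The block changed no member call besides Nr1d2 at 1 h with DMSO and Cry2 in Nrf2-/- cells. Counts over all genes moved by over 1.5 times as follows. For SFN isosmotic 2875 became 555 with all 16 libraries and 1097 with only those compared. For SFN at 1 h 101 became 18 and 809 under the same settings, 174 with DESeq2 and 198 without the filter, and at 6 h 46 became 8, 106, 95 and 139. For 1 h stress, 4334 with DMSO and 3466 with SFN became 2186 and 1857 with all 16 libraries and 2610 and 1882 with the filter of 10 counts. The interactions of 585 (1 h) and 803 (6 h) became 109 and 148 with all 16 libraries, the first 1156 without the filter and the second 456 with only the libraries compared. Between genotypes at 1 h 6154 became 3275 with quality weights and 1651 with only the libraries compared. For 1 h stress in Nrf2-/- cells 1399 became 2130 without the filter, 295 with the filter of 10 counts, 282 with quality weights and 7 with only the libraries compared, and for the genotype interaction 24 became 160, 10, 6 and 0 under the same settings and 124 with DESeq2. Scaling by total counts would shift the median of all genes by -0.16 to -0.21 (log2) in the 6 h comparisons.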
